A study of Drosophila melanogaster with 2 samples.

Results

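Of 4362 gfzf-bound intervals mapped in Drosophila melanogaster embryos, 599 (13.7%) carried 2 or more summits, that is, separate local maxima of enrichment reported within 1 and the same start and end. They were selected on measured values: an interval entered when the authors' list of peaks gave its chromosome, start and end on 2 or more lines with different summit positions. The number of summits, their distances and their signals are therefore descriptions of how these intervals were chosen and carry no test. Of the 599 intervals, 558 held 2 summits, 36 held 3 and 5 held 4, for 1244 summits in all. The other 3763 intervals had 1 line each.

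The data come from chromatin immunoprecipitation and sequencing (ChIP-seq) of whole embryos, of both sexes pooled and collected over 0 to 24 h, from a transgenic line that stably expressed gfzf with green fluorescent protein (GFP) at its C-terminus. An antibody to GFP pulled down the fusion protein, and chromatin had been sonicated to 200 to 800 bp. There were 2 biological replicates in a single group, so no conditions could be compared, and the labels do not say whether they came from separate embryo collections. The intervals come from the set that passed the authors' reproducibility filter on the dm6 build, which was called from both replicates together; signal is the peak caller's value on a scale that the sources do not state. Whole embryos of this age range mix all cell types and stages, so a site bound weakly in all nuclei and one bound strongly in few nuclei cannot be told apart, nor can it be seen whether both summits of an interval were bound in the same nuclei.

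The product of gfzf is found in the nucleus and combines zinc fingers of the FLYWCH type with a domain resembling glutathione S-transferases. It is known as a co-activator that works with the zinc finger protein M1BP at promoters that lack a TATA box and carry the core promoter element called Motif 1, many of them of housekeeping genes. Genes of this kind lie close together in the compact fly genome, often head to head, so that transcription start sites (TSSs) of neighbouring genes share a short stretch of DNA.

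The sequences below are from the RefSeq copy of the dm6 reference, on the plus strand and 5′ to 3′, with core promoter elements in capitals: Motif 1 core (GGTCACAC), the DNA replication-related element DRE (TATCGATA), and the degenerate Motif 6 and Motif 7, each searched on both strands. The DRE is its own reverse complement. The first set is 4 runs from 30 bp before the lower to 30 bp after the higher summit of a close pair. They are examples of 4 situations: summits at different genes (stx and ras), both at the same TSS (schlank), 1 of them away from the TSS (CG6966) and neither at a TSS, which was rare (12 members). They do not show how often elements occur: the run of the stronger close pair at e(y)3 and Rcd-1 held none.
stx/ras, chrX:10745040-10745299: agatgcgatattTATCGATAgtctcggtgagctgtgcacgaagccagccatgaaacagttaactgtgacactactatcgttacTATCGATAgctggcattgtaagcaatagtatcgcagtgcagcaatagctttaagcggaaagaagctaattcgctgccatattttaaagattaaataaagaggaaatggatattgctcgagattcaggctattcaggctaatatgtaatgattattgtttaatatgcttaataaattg
schlank, chrX:6267231-6267490: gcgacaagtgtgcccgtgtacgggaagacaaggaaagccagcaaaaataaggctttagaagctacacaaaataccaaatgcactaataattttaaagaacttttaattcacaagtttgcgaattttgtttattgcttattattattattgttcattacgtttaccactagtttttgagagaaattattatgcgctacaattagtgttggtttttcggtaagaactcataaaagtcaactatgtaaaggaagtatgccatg
CG6966, chr3R:15095673-15095944: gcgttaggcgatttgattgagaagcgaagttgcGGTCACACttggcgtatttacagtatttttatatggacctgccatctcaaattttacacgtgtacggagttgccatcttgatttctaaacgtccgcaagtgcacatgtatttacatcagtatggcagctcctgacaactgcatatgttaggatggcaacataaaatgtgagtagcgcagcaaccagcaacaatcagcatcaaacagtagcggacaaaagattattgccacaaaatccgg
no TSS within 250 bp, chrX:11579005-11579282: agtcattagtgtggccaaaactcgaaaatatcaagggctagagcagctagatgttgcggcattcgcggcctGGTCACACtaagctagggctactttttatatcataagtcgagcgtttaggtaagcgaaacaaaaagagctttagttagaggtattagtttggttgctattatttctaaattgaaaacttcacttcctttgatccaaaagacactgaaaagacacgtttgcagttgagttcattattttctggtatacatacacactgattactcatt

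In each run the lower summit is base 31, and the higher one is base 230 for stx/ras and schlank, base 242 for CG6966 and base 248 for the run without a TSS. The element nearest the stronger summit of CG6966 spans bases 34 to 41, whereas nothing in capitals lies near its weaker summit. At stx/ras the DRE lies at bases 13 to 20 and 84 to 91, on both sides of the stronger summit. The run at schlank holds none of the searched elements.

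The second set shows 30 bp on each side of both summits for 4 widely spaced pairs at different genes. They are the strongest such pairs, among the chromosome arms for which sequence is shown here, with a core element in at least 1 window, so the presence of an element is part of how they were picked.
Pli, chr3R:23890087-23890147: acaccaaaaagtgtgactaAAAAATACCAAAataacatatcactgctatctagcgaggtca
TfIIA-S, chr3R:23891094-23891154: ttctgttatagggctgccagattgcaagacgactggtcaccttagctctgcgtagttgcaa
Apc, chr3R:28844853-28844913: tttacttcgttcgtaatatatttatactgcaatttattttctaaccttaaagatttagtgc
spg, chr3R:28845137-28845197: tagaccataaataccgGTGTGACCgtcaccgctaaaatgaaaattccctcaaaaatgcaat
Dmtn, chr3R:6405903-6405963: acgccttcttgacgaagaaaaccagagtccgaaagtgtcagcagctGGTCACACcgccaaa
gpp, chr3R:6406741-6406801: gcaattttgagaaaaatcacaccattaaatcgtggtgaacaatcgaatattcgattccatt
Su(Tpl), chr3L:19909424-19909484: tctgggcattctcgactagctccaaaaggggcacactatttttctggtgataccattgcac
Prp3, chr3L:19910244-19910304: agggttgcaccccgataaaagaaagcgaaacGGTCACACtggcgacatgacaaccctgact

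The capitals mark Motif 6 on the minus strand at Pli, Motif 1 core on the minus strand at spg, and Motif 1 core on the plus strand at Dmtn and Prp3. In these 4 pairs the element lay at the stronger summit for Pli and spg and at the weaker summit for Dmtn and Prp3.

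The summits of most members stood very close together. In the 558 intervals with 2 summits their distance had a median of 207 bp, with quartiles of 202 and 222 bp and a range from 199 to 1132 bp. A distance of 210 bp or less was found in 331 intervals (59.3%) and one of 250 bp or less in 485 (86.9%), which leaves 73 with a wider spacing. No 2 neighbouring lines on a chromosome were closer than 199 bp, in this set, in the list called from the pooled reads before filtering, in the list of either replicate or in the deposited set on the older dm3 build. The spacing of close pairs thus piles up at the smallest distance found in any of these lists, and the cause was not tested. For this reason each result below is given separately for pairs up to 250 bp apart, called close here, and for pairs over 250 bp apart, called wide; this division was chosen after the distances had been seen.

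A further property of the close pairs follows the direction of the genome's coordinates. The stronger summit had the lower coordinate in 476 of 485 close pairs (98.1%, 95% interval 96.5 to 99.1; exact Clopper-Pearson, here and below treating intervals as independent and covering no error of read counting). In wide pairs it did so in 40 of 73 (54.8%, 42.7 to 66.5). All 331 pairs up to 210 bp apart had the stronger summit first, against 20 of 25 at 251 to 300 bp, 14 of 24 at 301 to 400 bp and 6 of 24 beyond that. Neighbouring summits that lay as close but in different intervals showed the same side in 97 of 97 cases in this set. In the larger lists there were exceptions: the counts were 3530 of 3807 (92.7%) in the unfiltered list, 3560 of 3836 (92.8%) in replicate 1 and 3138 of 3434 (91.4%) in replicate 2.

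The side followed the coordinate and not the direction of transcription. Where both summits were nearest to the same TSS of 1 gene, the weaker summit had the higher coordinate in 137 of 138 intervals for genes on the plus strand and in 57 of 59 for genes on the minus strand. For plus-strand genes the weaker summit therefore lay inside the gene, at a median of 174 bp downstream of the TSS, and for minus-strand genes it lay at a median of 220 bp upstream. The stronger summit lay at a median of 33 bp upstream for plus-strand and 15 bp upstream for minus-strand genes.

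Both replicate lists carried the same imbalance, with the stronger summit first in 743 of 749 close pairs of replicate 1 and in 607 of 609 of replicate 2. What produced it was not tested, and the weaker summit of a close pair is accordingly reported here as a line of the peak list, not as a second bound site. The 9 close pairs with the opposite side were also the ones that the replicates did not repeat: their weaker summit had a counterpart within 100 bp in neither replicate list in 8 of 9 cases, whereas 475 of the 476 others had one in at least 1 list. These 9, named because they are so few, are the intervals at CG3436, AnxB11/hang, CG10265, Cap-G, drk, nod, Naxe/RhoU, CG10581/siz and ZnT63C, with spacings of 211 to 244 bp and weaker summits of 3.38% to 24.6% of the stronger.

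**Figure D1:**
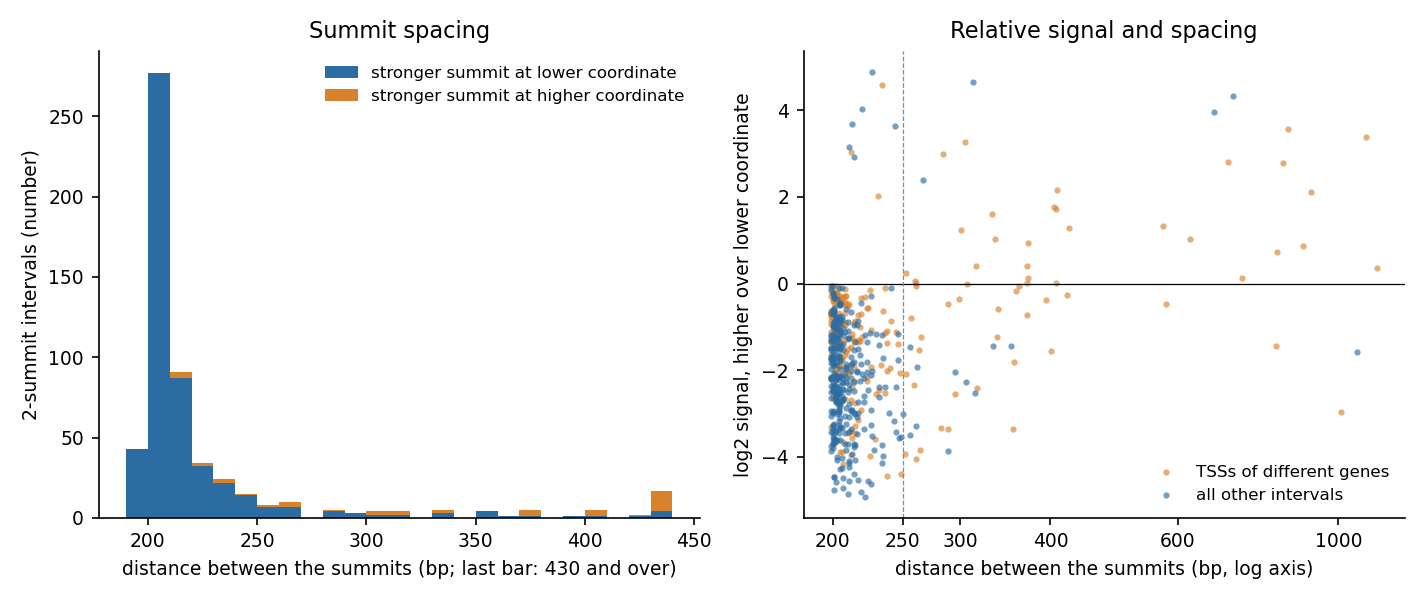
Left, number of 2-summit intervals by distance between the summits in bp, in bars of 10 bp, split by which summit is stronger. Right, log2 of the signal of the summit at the higher coordinate over that at the lower, against distance in bp on a log axis; each point is an interval, the dashed line is at 250 bp, and nearly all close pairs lie below 0 while wide pairs lie on both sides.

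The weaker summit usually carried a small part of the stronger one's signal. Over the 558 pairs, the log2 ratio of weaker to stronger had a median of −1.88, or 27.3%, with quartiles of −2.85 and −0.997. It was over 50% in 140 pairs (25.1%). The median was −1.92 in close pairs and −1.52 in wide pairs.

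The ratio differed with the genes at the summits. Pairs at TSSs of different genes were the most even, with a median log2 ratio of −1.26 (41.6%), and 94 of 230 had a weaker summit above 50% of the stronger. Pairs at 1 and the same TSS were the least even, at −2.54 (17.2%), with 20 of 197 above 50%. Pairs at 2 TSSs of 1 gene lay between, at −1.94, as did those with 1 summit away from any TSS, at −1.83. Among close pairs only, the medians were −1.27 for different genes and −2.55 for the same TSS.

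The 4 most even pairs were all wide and all at divergent genes. At CG7044 and Tbc1d22, 371 bp apart, the signals were 1432 and 1444; replicate 1 gave 866 and 869, and replicate 2 gave 548 and 555. At CG13398 and Akap200, the latter encoding an anchor of protein kinase A, they were 1873 and 1887 at a distance of 407 bp, with 1130 and 1201 in replicate 1 and 696 and 651 in replicate 2. The order of the summits thus turned between the replicates. At CG8272 and DCTN2-p50, a dynactin subunit gene, they were 1313 and 1324, with 806 and 832 in replicate 1 and 518 and 488 in replicate 2. At Myt1, a kinase that inhibits Cdk1, and Pmi they were 1924 and 1899, with 1097 and 1164 in replicate 1 and 816 and 718 in replicate 2. In 3 of these 4 pairs the replicates gave opposite orders, and their summits cannot be ranked.

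The 4 most uneven pairs were all close. The interval at eIF3j, a subunit gene of a translation initiation factor, had summits of 3076 and 102, so that the weaker reached 3.31% of the stronger. At nod, which encodes a kinesin-like protein of chromosome segregation, they were 119 and 3509, and at lap, a clathrin adaptor gene, 3871 and 133. The weaker summit of eIF3j was matched in replicate 1 only, at 155 beside 1864. At this size a weaker summit lies near the lower limit of the set: its lowest signal was 88.4.

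Most members lay at promoters. A summit was counted at a TSS when it lay within 250 bp of the start of a protein-coding transcript. The nearest TSSs of an interval's summits belonged to different genes in 256 of 599 intervals (42.7%, 38.7 to 46.8), to the same TSS of 1 gene in 197 (32.9%, 29.1 to 36.8) and to different TSSs of 1 gene in 53 (8.85%). Only some of the summits were at a TSS in 81 (13.5%), and none was in 12 (2.00%). The picture changed with spacing: summits were at different genes in 172 of 485 close pairs (35.5%, 31.2 to 39.9) and in 58 of 73 wide pairs (79.5%, 68.4 to 88.0), while the same TSS accounted for 195 close pairs (40.2%) but 2 wide ones (2.74%). All 12 intervals without a TSS at a summit were close pairs.

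**Figure D2:**
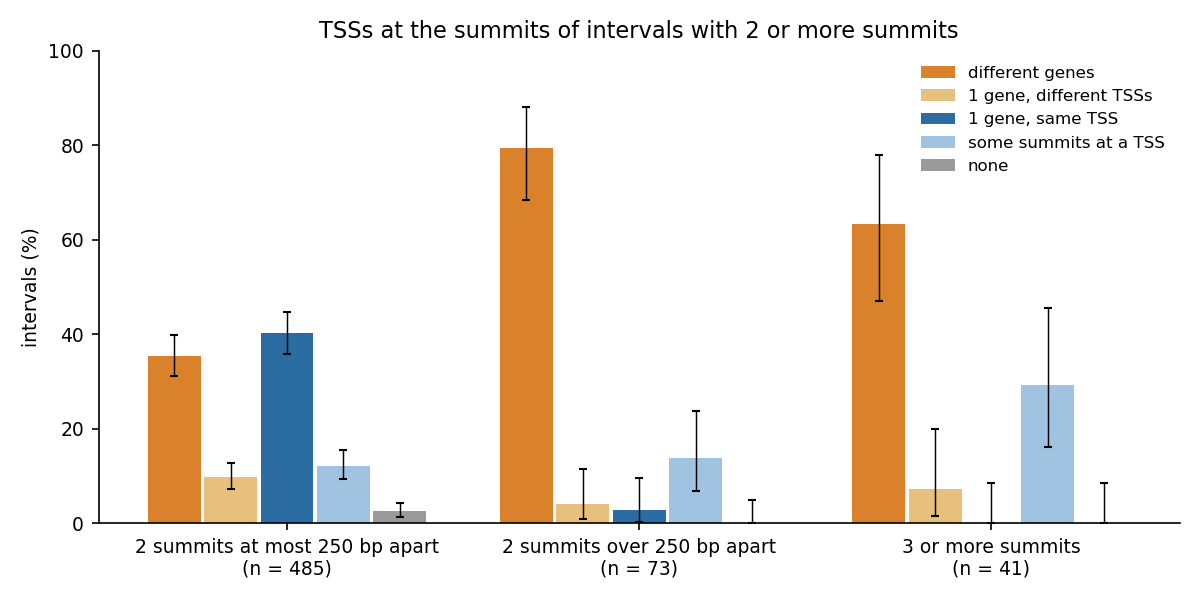
Percent of intervals in each TSS class, for close pairs, wide pairs and intervals with 3 or more summits; bars show shares and lines the exact 95% binomial intervals. Wide pairs fall mainly at different genes (79.5%), close pairs are divided between different genes (35.5%) and the same TSS (40.2%).

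The strongest member of all was the wide interval at Pli, the gene for the ubiquitin ligase Pellino, and TfIIA-S, which encodes the small subunit of the general transcription factor TFIIA. Its summits at 65 bp upstream of Pli and 64 bp upstream of TfIIA-S lay 1007 bp apart with signals of 7537 and 959. Replicate 1 gave 4595 and 567 and replicate 2 gave 2969 and 390, so the summit at Pli was far higher in both. These genes run in the same direction, which was rare: 222 of 230 2-summit intervals at different genes were divergent, that is, the gene at the lower coordinate was on the minus strand and the other on the plus strand, against 5 in tandem and 3 convergent.

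The widest pair joined CycG, encoding cyclin G, with Med, encoding the co-Smad Medea of the Dpp pathway, across 1132 bp. Its signals were 4661 at CycG and 5980 at Med, with 2900 and 3511 in replicate 1 and 1776 and 2468 in replicate 2. Med was the higher of the 2 in every list. Mondo, a sugar-responsive transcription factor, and crc, the fly ATF4, stood 736 bp apart with 1387 and 1526; this pair was picked as an example after its values were seen.

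Among the other strongest members, 4 wide pairs were uneven. At Apc, a gene of the complex that degrades beta-catenin, and spg, a DOCK-family exchange factor, the signals were 843 and 6697; spg had 4109 and 2603 in the replicates, while the summit at Apc had no counterpart within 100 bp in either. At Dmtn and gpp, the latter encoding the histone H3 methyltransferase Dot1, they were 822 and 5672. Here the replicates gave 466 and 3574 in the first and 354 and 2087 in the second. The gene crp had 1767 beside 6060 at pkaap, and CG6051 had 1798 beside 5972 at the malic enzyme gene Men-b. Some strong wide pairs were nearly even, and 3 were picked as examples after their values were seen. The signals were 4042 and 4230 at Ufl1 and CG1943, 3297 and 4364 at Lnpk and rgr, and 2679 and 2586 at Mcr and Bsg.

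Pairs of known regulators also met at wide intervals. The insulator protein gene su(Hw) and Polr2I, a subunit of RNA polymerase II, had summits of 965 and 746, 395 bp apart. At Su(Tpl), encoding the elongation factor ELL, and Prp3, of the spliceosome, they were 3573 and 1315 at 820 bp. The pair at su(Hw) was picked as an example from the list of wide pairs after its values were seen, and that at Su(Tpl) because its sequence is shown above.

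In wide divergent pairs the summits tracked the TSSs. Over 55 such intervals the TSSs were a median of 453 bp apart, the stronger summit lay a median of 42 bp and the weaker one 51 bp upstream of its own TSS, and both were within 150 bp upstream in 42. Summit distance and TSS distance had a Pearson r of 0.94 and a Spearman rho of 0.80 across these intervals, which share 1 peak list and a rule linking summit to TSS. In 167 close divergent pairs the TSSs were a median of 285 bp apart, and 164 had the stronger summit at the lower coordinate. Close pairs can vary in spacing only from 199 to 250 bp by their definition, so no correlation is given for them and none is compared with that of the wide pairs.

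Among divergent promoter pairs that shared an interval, the share with 2 or more summits was higher at wider TSS distances. Among adjacent divergent genes with both TSSs within 250 bp of a summit of 1 interval, the interval had 2 or more summits for 45 of 274 pairs (16.4%) with TSSs up to 100 bp apart and for 76 of 301 (25.2%) at 201 to 300 bp. The share was 58 of 102 (56.9%) at 301 to 400 bp and 68 of 74 (91.9%) at 401 to 600 bp. Pairs with only 1 TSS near a summit were left out. They numbered 4 up to 100 bp, 45 at 201 to 300 bp, 135 at 301 to 400 bp and 194 at 401 to 600 bp. A single summit close to 1 TSS can miss the other already below 500 bp, and beyond 500 bp it cannot reach both. The rise is therefore partly set by the definition, and how much was not tested.

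**Figure D3:**
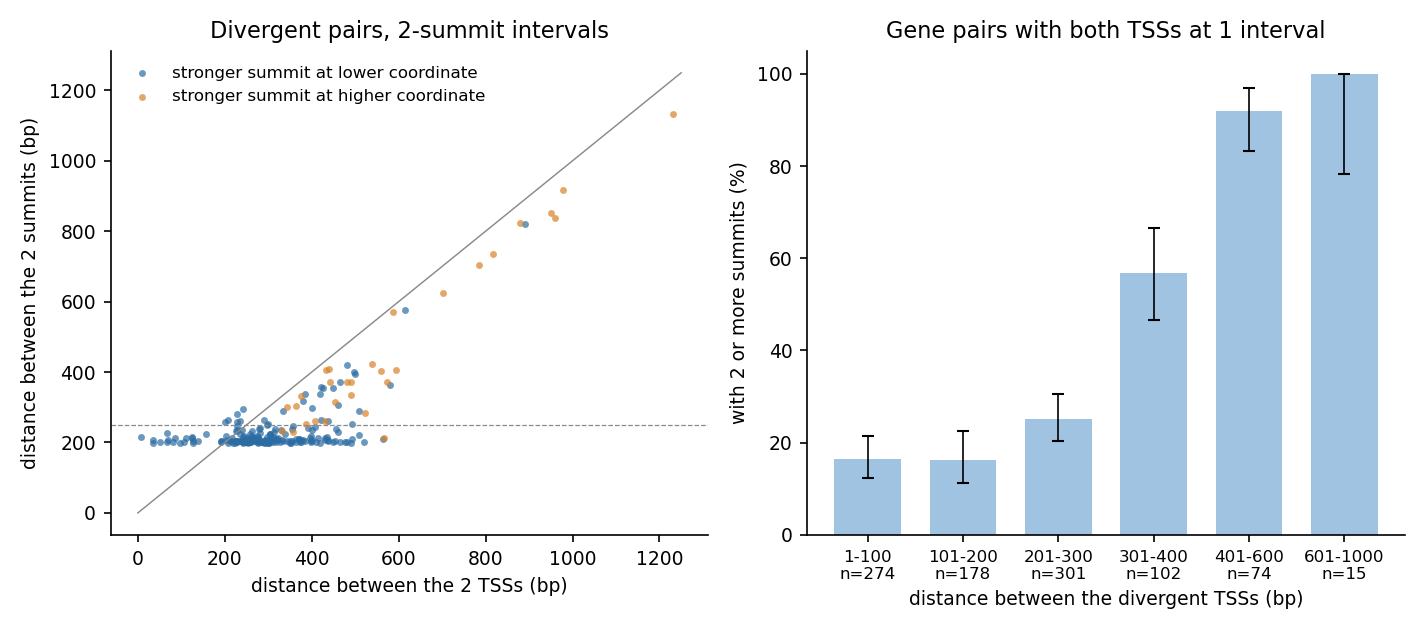
Left, distance between the summits against distance between the TSSs in bp for 222 divergent 2-summit intervals, with the line of equal distance and a dashed line at 250 bp; close pairs form a flat band below it, which their definition by spacing sets. Right, percent of divergent gene pairs sharing an interval whose interval has 2 or more summits, by TSS distance in bp, with exact 95% binomial intervals. The percent rises from 16.4% to 100%, which the rule for sharing an interval partly sets.

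At intervals of 1 gene with different TSSs, the summits had different starts of the gene as their nearest TSS within 250 bp. Of the 50 with 2 summits, 47 were close pairs. The weaker summit had the higher coordinate in 31 of 32 for plus-strand and 17 of 18 for minus-strand genes, so use of alternative starts was not shown. The strongest were CG3436, with 472 and 4202, and stck, which encodes the focal adhesion protein PINCH, with 4004 and 1439. At stck the stronger summit gave 2395 and 1609 in the replicates, and the weaker had no counterpart in either list. The weaker summit at CG3436 had none either. CG10984 followed with 3124 and 595, of which the replicates gave 1869 and 517 in the first and 1254 and 216 in the second. TSSs of 2 genes lay within 250 bp of a summit at CG10984.

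At intervals with both summits nearest to 1 TSS, the strongest were bug with 5519 and 223 and CG4820 with 5357 and 222. Next came c11.1 with 4512 and 1576, and Cbl, a ubiquitin ligase that attenuates receptor tyrosine kinases, with 4118 and 521. The class rests on the nearest TSS only: at bug and at CG4820, TSSs of 2 genes lay within 250 bp of a summit. In c11.1, a minus-strand gene, the summits lay 25 and 230 bp upstream of the TSS, and in Cbl, a plus-strand gene, 16 bp upstream and 201 bp downstream. The ceramide synthase gene schlank, whose run is printed above, was among the pairs at the smallest distance, with 4023 and 1737 at 199 bp.

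In the 69 2-summit intervals where only 1 summit was at a TSS, that one was the stronger in 61 (88.4%). The other summit was 251 to 735 bp from the nearest protein-coding TSS, with a median of 285 bp, so many missed the limit of 250 bp narrowly, and 3 of the 69 lay near the TSS of a non-coding gene. Larp4B, of an RNA-binding La-related protein, was the strongest, with 5904 at 92 bp and 452 at 300 bp downstream of the TSS. CG6966 had 5601 and 1122, and Syx1A, encoding the neuronal SNARE protein syntaxin, 5119 and 187. At SNF4Agamma, the gamma subunit of AMP-activated kinase, both were nearly equal, 2635 and 2433, and the summit within reach of the TSS was the slightly weaker one. Its replicates kept that order, 1595 over 1485 and 1043 over 938.

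The 12 intervals without a TSS nearby were few, and their weaker summits were faint in the strongest cases. The strongest of them, on chromosome X, had 2920 and 127; its stronger summit lay 1737 bp upstream of nod and near the Motif 1 core printed above. Replicate 1 gave 1905 and 107 and replicate 2 gave 1023 and 118 there. The next, on arm 3R, had 1935 and 98.9 and lay 503 and 298 bp upstream of CG3505.

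The 41 intervals with 3 or 4 summits fell at different genes in 26 cases (63.4%, 46.9 to 77.9), with TSSs of 2 or more genes near their summits in 36. Their outermost summits were a median of 624 bp apart. The first summit was the strongest in 28 of 41, and the signal fell at every step along the coordinate in 20. At Pka-C1, the catalytic subunit of protein kinase A, hoip, of the small nuclear ribonucleoproteins, and pelo, a ribosome rescue factor, the 4 summits had 3969, 1979, 308 and 264, the last 2 both nearest to pelo.

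In 1 interval with 4 summits a strong and a weak line alternated. At Zn72D and Taf4, a subunit of TFIID, the values along the coordinate were 1142, 182, 1448 and 261. Each gene had a strong summit within 12 bp of a TSS and a faint one 201 bp further along the coordinate. The faint one lay 3 bp from another TSS of Zn72D in the first case and 195 bp downstream of the TSS of Taf4 in the second. Replicate 1 gave 663, 113, 853 and 165, and replicate 2 gave 486, 61.7, 617 and 88.1. In 2 others the signal fell over the first 3 summits and was higher at the last. At the polyubiquitin gene Ubi-p63E and Sc2 the values were 2335, 678, 386 and 704. At omd and flfl, the latter a regulatory subunit of protein phosphatase 4, they were 2508, 426, 387 and 777.

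Compared with intervals of 1 summit, members were wider and covered more genes. TSSs of 2 or more genes lay within 250 bp of any summit in 314 of 599 members (52.4%, 48.3 to 56.5) and in 787 of 3763 others (20.9%, 19.6 to 22.2), against 25.2% of all 4362 intervals. More summits give more windows in which a TSS can be found; with only the strongest summit the members' share was 159 of 599 (26.5%, 23.0 to 30.3). Counting any TSS inside the interval gave 55.6% and 23.0%. By spacing, 2 or more genes were near any summit in 217 of 485 close pairs (44.7%) and in 61 of 73 wide ones (83.6%). No gene was near in 12 members (2.00%, 1.04 to 3.47) and in 711 others (18.9%, 17.7 to 20.2), against 16.6% of all intervals.

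Size and strength moved with these shares. Members had a median width of 851 bp and a median top signal of 1344, with a range from 200.7 to 7537, while the others had 524 bp and 270, from 88.4 to 15685. Their share was 0 of 1091 intervals below the lower quartile of top signal, 37 of 1090 from there to the median, 339 of 1090 (31.1%) from the median to the upper quartile and 223 of 1091 (20.4%) above it. Among 1-summit intervals whose width lay between the members' lower and upper quartiles of width, 29.3% had 2 or more genes, and of those between the members' quartiles of both width and top signal 83 of 271 did (30.6%, 25.2 to 36.5). These shares use 1 summit an interval; they lie below the members' 52.4% over all their summits and above their 26.5% at the strongest summit alone. Members made up 12.6% to 15.2% of the intervals on the large chromosome arms and 3 of 63 on chromosome 4.

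The number of lines also depends on the limit of the filtered set. Of the 3763 1-line intervals, 210 (5.58%) had a further line in the unfiltered list, and 19 members had more lines there than in the filtered set. The weakest summits that made an interval a member had signals of 88.46, 88.66, 89.72 and 89.78, and the strongest left out had 88.43, 88.26, 87.61 and 87.03.

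Core promoter elements stood mainly at the stronger summit of close pairs. Motif 1 core lay within 50 bp of the stronger summit in 111 of 485 (22.9%, 19.2 to 26.9) and of the weaker in 21 (4.33%, 2.70 to 6.54). For comparison, it lay within 50 bp of the summit in 12.2% of 1-line intervals, in 30.5% of the 1-line intervals with a top signal between the members' quartiles, and of the TSS in 5.58% of 13968 protein-coding genes. Motif 6 was at 7.01% of the stronger and 1.24% of the weaker summits, against 0.888% of TSSs and 5.87% of the 1-line intervals of like top signal.

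The DRE was at 8.04% (5.78 to 10.8) of stronger and 4.12% (2.54 to 6.30) of weaker summits of close pairs, against 5.56% of TSSs. Motif 7 was at 6.60% and 3.71%, against 5.27%. The TATA box (TATAAA) was at 10.9% and 10.1% in close pairs, less than the 17.0% of TSSs, and the GAGA element (GAGAG) at 7.01% and 9.28%, against 11.5%. Summits of 1-line intervals had the DRE at 9.57%, Motif 7 at 7.63%, the TATA box at 10.5% and GAGA at 7.92%. In 1-line intervals of like top signal these were 7.34%, 5.50%, 11.6% and 7.52%. The low shares of the TATA box and GAGA were thus not particular to close pairs. Motif matches are letters in a window and not measured binding sites; matches of different motifs may overlap and were counted for each.

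In wide pairs the weaker summit held Motif 1 core more often than in close pairs: 10 of 73 (13.7%, 6.77 to 23.8), beside 18 of 73 (24.7%, 15.3 to 36.1) at the stronger one. The TATA box was at 15 weaker (20.5%, 11.98 to 31.6) and 7 stronger summits (9.59%, 3.94 to 18.8) of wide pairs. Any of Motif 1 core, DRE, Motif 6 or Motif 7 was at both summits in 7 wide pairs, at the stronger alone in 16, at the weaker alone in 12 and at neither in 38. In close pairs these counts were 25, 163, 36 and 261. One of these elements was near any summit in 282 of 599 members (47.1%) and in 1107 of 3763 others (29.4%), against 31.8% of all intervals. At the strongest summit alone it was found in 37.9% of members, and in 1-line intervals of like top signal in 43.5%.

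**Figure D4:**
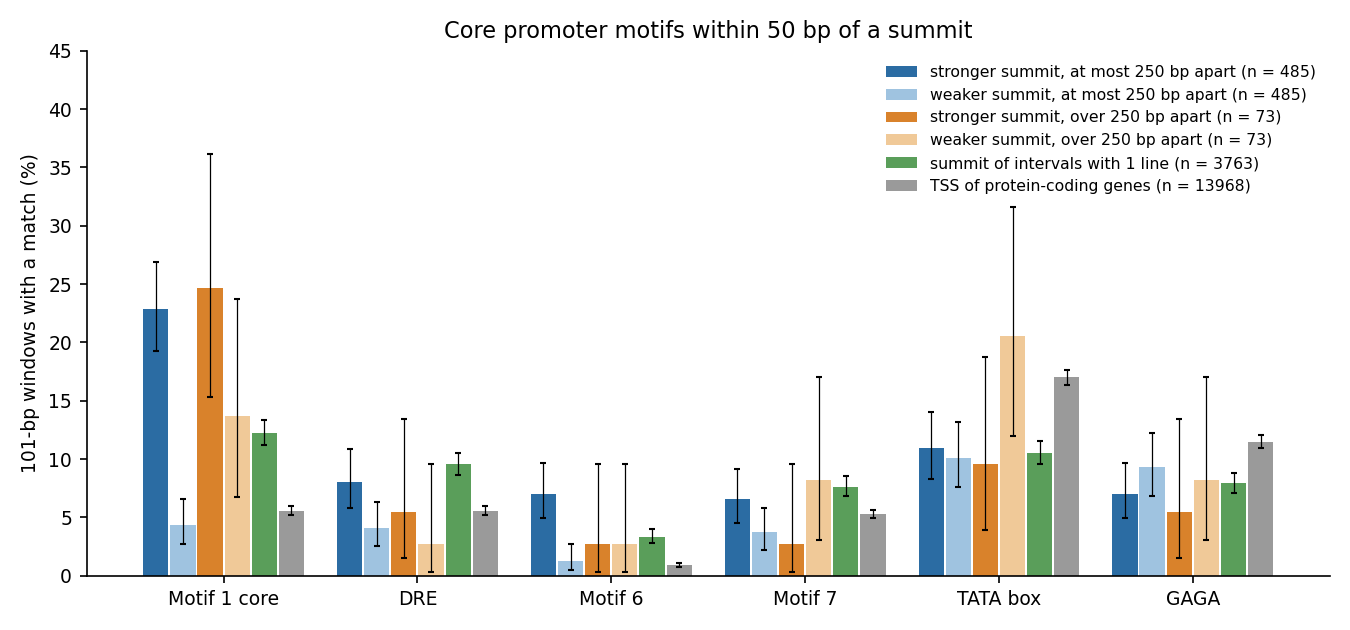
Percent of windows of 50 bp on each side with a match to each motif, at the stronger and weaker summits of close and wide pairs, at summits of 1-line intervals and at TSSs; lines are exact 95% binomial intervals. Motif 1 core stands at 22.9% of stronger and 4.33% of weaker summits of close pairs.

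The share of bound genes that lay at a member was then taken for 9 gene groups. Genes named in each group are ranked by the strongest summit of their interval, which can be nearest to a neighbouring gene. Of 4613 protein-coding genes with a summit within 250 bp, 926 (20.1%, 18.9 to 21.3) were at a member. Among cytosolic ribosomal proteins this was 14 of 75 (18.7%, 10.6 to 29.3), including RpS25 at the interval of CG4820 and RpS27, paired with Nup37 at 4634 and 1111. Mitochondrial ribosomal proteins had 11 of 50 (22.0%), with mRpL55 and mRpL34 at the strongest intervals. The strongest summits of these intervals were nearest to ATPsynD (4757) and Dg (4313). Summits with mRpL55 and mRpL34 as their nearest gene had 582 and 3251. The respiratory chain had 9 of 56 (16.1%), led by ATPsynD, which shared an interval with mRpL55, and UQCR-6.4.

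Translation factors had 7 of 36 (19.4%), with eIF3j and eEF1beta at the strongest intervals, and the proteasome 3 of 30, with Rpn7 and Rpt2. In the interval of eEF1beta the strongest summit, 2792, was nearest to Psi, and the summit nearest to eEF1beta had 210. Mediator and RNA polymerase II genes had 11 of 46 (23.9%, 12.6 to 38.8), with TfIIA-S and MED20 at the strongest intervals. In the interval of TfIIA-S the strongest summit, 7537, was at Pli, and that at TfIIA-S had 959. DNA replication genes had 7 of 25 (28.0%, 12.1 to 49.4), led by PolE1 at 2127 and 315 and RPA2 at 1177 and 338. Of the Polycomb and Trithorax groups 3 of 20 were at members, among them the histone methyltransferase gene ash1, whose interval with Taf6 had 1871 and 499, and Sfmbt. Of promoter-binding and architectural proteins 2 of 13 were, pzg and su(Hw). The 95% interval of each of the 9 groups includes the 20.1% of all bound genes.

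The replicates repeated most summit positions, and agreement in the order of the summits is informative mainly for wide pairs. Of the 1244 summits, 1162 (93.4%, 91.9 to 94.7) had a summit within 100 bp in both replicate lists. The stronger summit of 2-summit intervals was found in 99.1% and 98.0% and the weaker in 95.9% and 92.7%, for replicates 1 and 2. Where both were found, the order of strength was that of the joint set in 528 of 530 and 506 of 508 intervals. In close pairs the stronger summit came first in nearly all cases in every list, so their agreement in order says little. Among wide pairs the order was that of the joint set in 65 of 67 and 63 of 65. Of the wide pairs found in both lists, 59 of 63 kept their order in both. The log2 ratio of weaker to stronger had medians of −1.76 and −1.79. Between replicates the ratio had r = 0.77 and rho = 0.82 over 494 intervals. It differed between them by a median of 0.33, and by up to 1.87 in 95% of intervals, so a single interval's ratio is known only roughly. The replicate lists share their reads with the joint set and so show repeatability only.

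**Figure D5:**
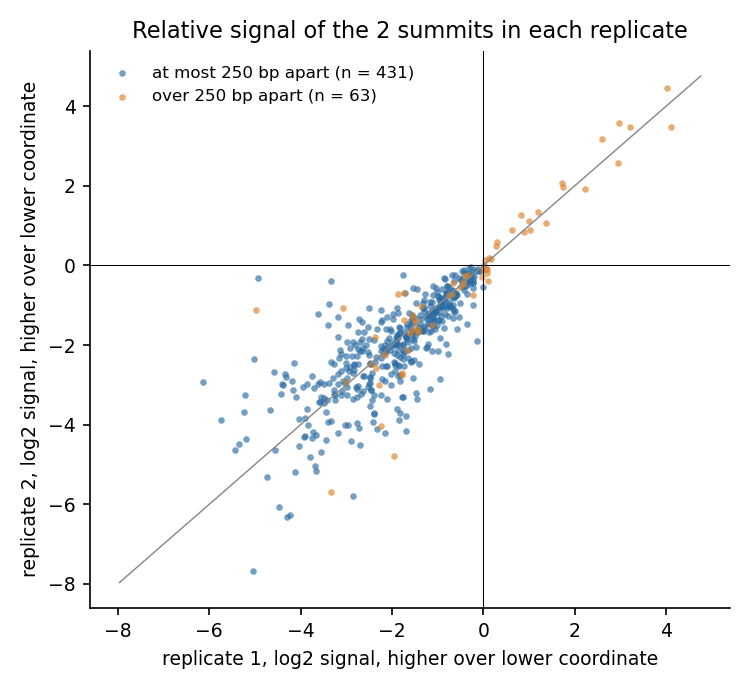
Log2 of the signal at the higher over that at the lower coordinate in replicate 1 and replicate 2, for 494 2-summit intervals with both summits found in both lists; the grey line is equality. All 431 close pairs lie below 0 in both replicates, and 63 wide pairs spread over both signs.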

How the data were processed

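ChIP-seq peak lists of 2 replicates of whole embryos were used as deposited by the authors: the filtered set on dm6 for all results, the unfiltered joint list (30000 lines), both replicate lists and the dm3 set for checks. Per the file headers and labels the lists carry no read counts, so depth is unknown. For the aligner and peak caller, names and settings were not given in the sources used here. Peak signal is a deposited score on an unstated scale, compared only within a list. The deposited −log10 q-value had 1 value throughout the set and was not used. The summit offset ran from 1 to the interval's width and never was 0, so it was counted from 1.

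TSSs are those of 13968 protein-coding genes of Ensembl release 115 on the same assembly; a summit within 250 bp was at a TSS, and its nearest TSS decided the class. Replicate summits were matched within 100 bp, and motifs searched within 50 bp on both strands. Shares have exact 95% Clopper-Pearson intervals over intervals or genes, which are not independent replicates. No p-value was computed, because there is 1 group and the members were chosen by the peaks themselves. Python 3.11.15 with numpy 2.4.6, scipy 1.17.1, pandas 2.3.3 and matplotlib 3.10.9 was used, and the scripts were tested on simulated data.

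The members, gene lists and rules were chosen with earlier results of these data known. Named intervals are the 8 with the strongest summit, the 4 with most summits, the 4 strongest of each TSS class, and the 4 widest, closest, most even and most uneven; others are said to be picked where they are named. Alternatives were the TSS distance, annotation, motif window, minimum spacing, strongest lines only, dm3, and each replicate alone; the division at 250 bp and the side of the stronger summit were added after seeing the data.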

Additional observations from a re-analysis of the deposited data

How the results depend on the processing

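Depth is unknown and no test was made, so the shares carry no error of read counting. In this section the share with nearest TSSs of different genes counts every member whose summits have nearest TSSs of 2 or more genes. It was 44.1% with the main settings, against 42.7% for the class of that name above. With only the 2504 strongest lines, 252 intervals were members, with a median spacing of 210 bp, a median log2 ratio of −1.08 and the stronger summit first in 86.2%; nearest TSSs of different genes rose to 65.5%, 2 or more genes near any summit to 69.0% (25.3% for 1-line intervals), a core motif to 51.2%, and none lacked a TSS (0%). On dm3 the median spacing was 208 bp.

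For wide pairs alone the log2 ratio was −1.52, the stronger summit came first in 54.8%, nearest TSSs were of different genes in 79.5% and 2 or more genes were near any summit in 83.6%; for close pairs these shares were 98.1%, 35.5% and 44.7%. Where the stronger summit had the higher coordinate, 76.2% had nearest TSSs of different genes. A TSS distance of 100 bp lowered the share with nearest TSSs of different genes from 44.1% to 30.2%. For 2 or more genes near any summit, distances of 100, 500 and 1000 bp gave 39.1%, 60.3% and 66.4% of members and 9.35%, 33.1% and 42.1% of 1-line intervals, members being above in each. Without a TSS were 5.68% of members at 100 bp and 1.00% at 1000 bp. The strongest summit alone gave 26.5%. For 1-line intervals, TSSs of all genes gave 23.0%, any TSS in the interval 23.0%, those between the members' quartiles of width 29.3% and of top signal 23.1%. A core motif was found in 29.7% of members within 25 bp, 62.9% within 100 bp and 37.9% at the strongest summit alone. Summits were found in both replicates for 88.6% within 50 bp, 97.2% within 200 bp and 86.2% if all summits of the interval had counterparts of their own.

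Leaving out 1 replicate at a time gave 571 to 661 members, a median spacing of 204 to 205 bp and a log2 ratio of −2.10 to −1.95. Nearest TSSs were of different genes in 38.4% to 38.5%. TSSs of 2 or more genes were near in 47.3% to 48.0% of members and 20.6% to 21.4% of others. No TSS was near in 1.40% to 1.66%, a core motif was found in 43.6% to 46.4% and the stronger summit came first in 95.7% to 97.1%. These values are not those of the full replicate lists used above, in which 851 intervals of replicate 1 and 679 of replicate 2 had 2 or more summits. The cause of these shifts was not tested. No paired analysis was possible because there is 1 group.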
